A study of Mus musculus with 20 samples.

Results

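In nascent RNA of mouse erythroleukemia cells, 806 well-covered introns had no unspliced read before or after erythroid induction. They were chosen by a rule on the deposited read counts: at least 30 reads spliced exactly at the intron over both conditions, and 0 unspliced reads in each. For 7 of the 806 the table has a line for 1 condition only, and the missing line was taken as no reads. The rule took 24.0% of the 3357 introns with at least 30 spliced reads, among 68794 tabulated introns. The 806 introns lay in 419 of the 805 genes that had an intron of that depth. The other 2551 introns, with the same depth minimum and at least 1 unspliced read, are the comparison set used throughout. Since measured reads chose the introns, the absence of unspliced reads is a description and not a finding, and no test is attached to a feature of the set.

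MEL cells are a mouse red cell precursor line that begins to mature when dimethyl sulfoxide (DMSO) is added. Of the 20 samples, 4 were long-read libraries from uninduced MEL cells and 4 from MEL cells kept in 2% DMSO for 5 days, each from 2 biological replicates read on 2 PacBio instruments, RSII and Sequel. No altered allele is named for these 8 samples, both groups are 1 cell line, and the RNA came from chromatin after removal of polyadenylated and ribosomal RNA. The other 12 samples (human beta-globin transgene lines and PRO-seq) were not analysed here.

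An intron begins at a 5' splice site and ends at a 3' splice site, and the spliceosome removes it in a pair of steps: cleavage at the 5' site, then joining of the exons. In many genes this happens while RNA polymerase II is still moving along the template, so a nascent transcript can be caught unspliced, cut at the 5' site only, or spliced. Most introns begin with GT and end with AG and are removed by the major spliceosome, while a minor spliceosome removes a small class that often begins with GTATCC or ATATCC.

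The splice sites of 5 sets of these introns are printed to show how varied they were. Each 5' string holds the last 3 exon bases and the first 6 intron bases, and each 3' string holds the last 20 intron bases and the first 3 exon bases, read 5' to 3' along the gene. The capitals mark the first 2 and the last 2 intron bases. The strings are those of the authors' deposited table. The first set is the 5 introns with most spliced reads:

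Rps25 intron 1, 5' splice site: atgGTaagg
Rps25 intron 1, 3' splice site: ctcccgctttcttcccctAGcct
Ergic2 intron 1, 5' splice site: tagGTaaga
Ergic2 intron 1, 3' splice site: tttatctgtttgtttcttAGtat
Map1lc3b intron 1, 5' splice site: ttgGTgagc
Map1lc3b intron 1, 3' splice site: actatgtctctttcttgcAGaac
Map1lc3b intron 2, 5' splice site: ccaGTaggt
Map1lc3b intron 2, 3' splice site: gagttggcctctctctgcAGgtg
Ergic2 intron 2, 5' splice site: cagGTgagc
Ergic2 intron 2, 3' splice site: gttgttgtcgtatttctcAGttt

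The second set is the 3 members that begin with GTATCC, the letters typical of the minor spliceosome:

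Pfdn5 intron 3, 5' splice site: tctGTatcc
Pfdn5 intron 3, 3' splice site: tcttaaccctgccctctcAGatg
Ccnt2 intron 1, 5' splice site: tgtGTatcc
Ccnt2 intron 1, 3' splice site: ttctaaacgttgcatcccAGctc
Eif3i intron 3, 5' splice site: actGTatcc
Eif3i intron 3, 3' splice site: tttcttaacaccttccccAGggg

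The third set is the 6 members that begin with GC in place of GT:

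Gpr107 intron 2, 5' splice site: gagGCaagt
Rictor intron 3, 5' splice site: aagGCaagt
Mkln1 intron 9, 5' splice site: gagGCaagt
Rrm1 intron 7, 5' splice site: tagGCacgt
Nckap1l intron 11, 5' splice site: aagGCaaga
Vps72 intron 1, 5' splice site: gagGCaaga

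The fourth set holds the member with the lowest 5' score and the 3 members with the lowest 3' scores:

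Capza1 intron 5, 5' splice site: actGTtaag
Atp6ap2 intron 7, 3' splice site: gttaaagaagtgactttcAGttt
Zfp809 intron 1, 3' splice site: gaagagaaacgtcattccAGggg
Lin7c intron 2, 3' splice site: aaacatagagtgttttgcAGgta

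The fifth set is taken from the 5 members with the highest share of splicing intermediates among those with at least 30 reads counted for it, described further below: Hdlbp intron 3 had the highest share of these 5, and Pitrm1 intron 9 the lowest 3' score of them:

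Hdlbp intron 3, 5' splice site: aagGTgaca
Hdlbp intron 3, 3' splice site: atctgtgttctctggtctAGttg
Pitrm1 intron 9, 5' splice site: ggaGTaagt
Pitrm1 intron 9, 3' splice site: atatcgccccctcaatgaAGtat

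The deposited tables give 1 value per intron and condition, so replicates and instruments were already pooled, and no value here has a replicate error. Over all introns the uninduced pool held 358493 spliced and 57886 unspliced observations and the induced pool 240664 and 38707, a read being counted at each intron it covers. Erythroid genes marked the induced pool: 9 of 11 erythroid markers had reads in the uninduced pool and all 11 in the induced pool, and the alpha globin gene Hba-a1 had at most 108 reads at an intron before and 1099 after. Of 5 myeloid markers only Spi1 (at most 5 uninduced reads) had any, of 3 lymphoid markers only Ptprc (at most 13 uninduced reads), and 3 fibroblast markers had none. All intervals below are 95% Wilson intervals and cover counting error only, since the libraries were amplified by PCR and reads need not be independent molecules.

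Depth sets how firmly 0 can be read. The 806 introns had a median of 40 spliced reads (quartiles 34 and 53, highest 210), against 47 in the comparison set. At the rule's edge, 61 members had exactly 30 reads, where 0 unspliced reads still allows an unspliced share of up to 10.0% by the 3-count limit and 11.4% by the Wilson bound. Just outside the edge, 66 introns had 29 spliced and 0 unspliced reads. Their median length was 1445 nt, against 2130 nt for the 61 just inside. At the other end, the 210 reads of Rps25 intron 1 limit its unspliced share to 1.43%. Of introns with 30 to 49 spliced reads 29.4% had no unspliced read (563 of 1918), of those with 50 to 99 reads 23.1% (217 of 939), and of those with 100 or more 5.20% (26 of 500). The set is thus weighted toward shallow introns, where 0 is easiest to reach.

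Both pools fed the set. The introns held 23382 spliced reads in the uninduced pool, 6.52% of its spliced observations, and 15147 in the induced pool, 6.29%. At least 10 reads in each pool were present for 603 of the 806. By raw reads 562 were deeper in the uninduced pool, 222 in the induced pool and 22 equal. Per spliced observation of the pool, 452 were higher uninduced and 354 higher induced. All reads came from the uninduced pool for 5 introns of Dpp4, a cell surface peptidase (30 to 74 reads), for intron 9 of Selenbp1 (42 reads) and for intron 1 of Lgals1, a galectin (37 reads). All 36 reads of Epb42 intron 1 came from the induced pool.

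**Figure D1:**
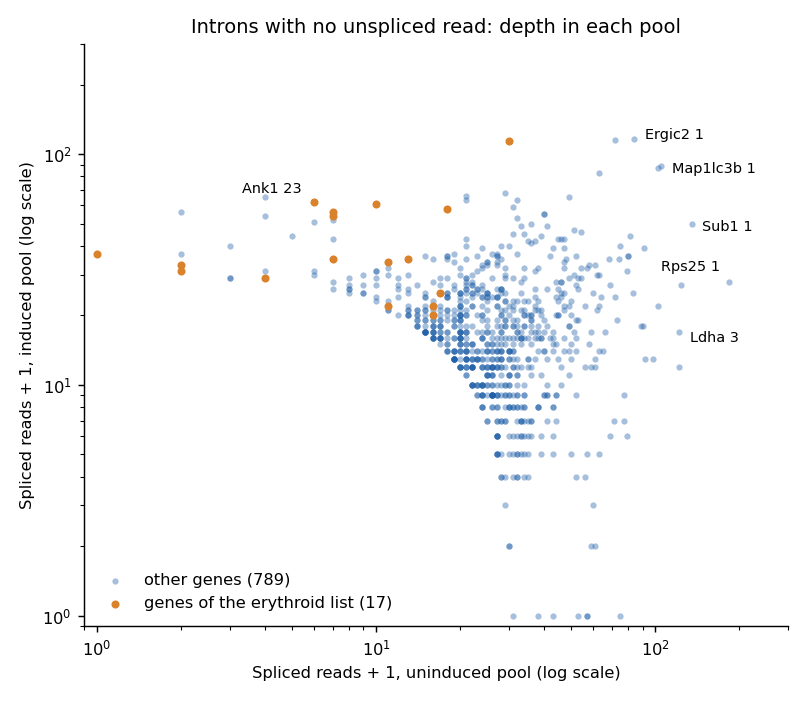
Spliced reads of each of the 806 introns without unspliced reads in the uninduced pool (x axis) and the induced pool (y axis), each plus 1 and on a log scale; each point is 1 intron, and orange points are introns of genes on an erythroid list. The lower left edge is the minimum of 30 reads over both pools; all 17 erythroid points have more induced than uninduced reads.

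The deepest member was intron 1 of Rps25, a protein of the small ribosomal subunit, at chr9:44407758-44407987 on the plus strand (GRCm38, 1-based, within the coding part of the gene). Spliced reads numbered 183 before and 27 after induction. Its downstream neighbours were not free of unspliced reads: intron 2 had 219 spliced and 1 unspliced read over both pools, intron 3 had 119 and 4, and intron 4 had 69 and 8. The unspliced share thus went from 0 at intron 1 to 0.455%, 3.25% and 10.4% toward the 3' end of this gene.

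Ergic2, which codes for a protein cycling between endoplasmic reticulum and Golgi, had the next deepest. Its intron 1 in the 5' UTR (chr6:148206676-148211969, minus strand) had 83 uninduced and 115 induced reads. Intron 2 (chr6:148204885-148206532) had 71 and 114, the second highest induced depth of any member after intron 1. Intron 3 of the same transcript had 165 spliced and 6 unspliced reads.

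Map1lc3b, the autophagosome protein LC3B, contributed introns 1 (chr8:121590565-121593489, plus strand) and 2 (chr8:121593546-121595985). Intron 1 had 104 uninduced and 88 induced reads. Intron 2 had 101 and 86, although its 5' site scored 5.41, below the lower quartile of the set (7.52). Its last intron, number 3, had 8 unspliced among 184 reads in all, a share of 4.35%. In Rps25, Ergic2 and Map1lc3b, the unspliced reads found lay downstream of the members.

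Sub1 intron 1, of a single-strand DNA binding coactivator, had 134 uninduced and 49 induced reads (chr15:11993862-11995950, minus strand, 5' UTR). Rps29 intron 1, of a second small subunit protein, had 123 and 26 (chr12:69158761-69158996, minus strand). Ssr3 intron 1, of a translocon-associated protein, had 62 and 82 (chr3:65391452-65392404, minus strand) with a 5' score of 3.27. Each is the first intron of its gene, and every later intron of these 3 genes had between 1 and 7 unspliced reads. Ldha intron 3, of the A subunit of lactate dehydrogenase, was nearly all uninduced, with 121 against 16 reads (chr7:46849091-46850177, plus strand). Reads of ribosomal protein genes may be shared with near-identical copies elsewhere in the genome, and how the authors divided such reads is not stated, so the values of Rps25 and Rps29 are uncertain to that extent.

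Introns without unspliced reads were long. Their median length was 1992 nt (quartiles 858 and 4390, range 76 to 77713), against 887 nt (quartiles 299 and 2152) in the comparison set and 1226 nt over all tabulated introns. The share of introns without an unspliced read was 10.4% up to 100 nt (24 of 231), 12.3% from 101 to 500 nt (98 of 798) and 18.7% from 501 to 1000 nt (106 of 567). Beyond that it was 28.1% up to 2500 nt (251 of 894), 32.2% up to 5000 nt (145 of 451), 42.5% up to 10000 nt (99 of 233) and 45.4% above (83 of 183). The difference in length was present at each depth: medians were 2030 and 1025 nt at 30 to 49 reads, 1881 and 935 nt at 50 to 99, and 1387 and 563 nt at 100 or more. Whether the authors required an unspliced read to cover a whole intron is not stated, and its part in the relation with length was not tested.

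**Figure D2:**
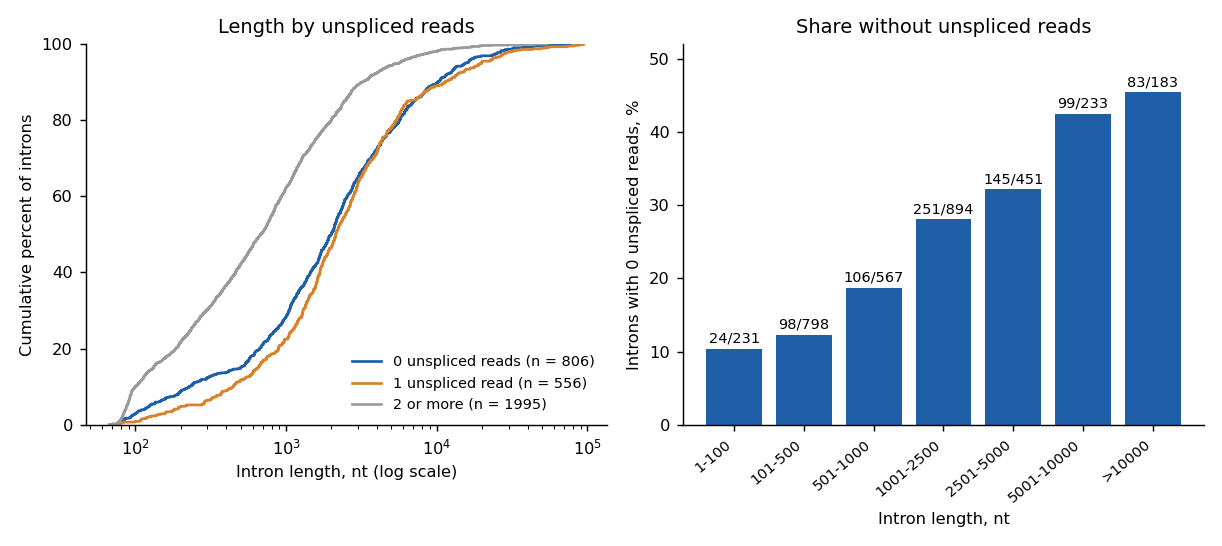
Left, cumulative percent of introns (y axis) up to each length in nt (x axis, log scale) for introns with 0, 1 and 2 or more unspliced reads, all with at least 30 spliced reads. Right, percent of introns with 0 unspliced reads in each length class, with counts above the bars; the bars run from 10.4% to 45.4%, and on the left the curves of 0 and 1 unspliced read lie close together, to the right of the rest.

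The length difference did not set introns with 0 unspliced reads apart from introns with 1. Median length was 2137 nt for the 556 introns with 1 unspliced read, 1222 nt with 2 (418 introns), 980 nt with 3 to 5 (630 introns), 635 nt with 6 to 10 (432 introns) and 291 nt with 11 or more (515 introns). The distance from the 3' splice site to the end of the transcript followed a similar course, with medians of 17570 nt at 0, 16648 nt at 1, 12066 nt at 2, 10304 nt at 3 to 5, 7506 nt at 6 to 10 and 3731 nt at 11 or more. The 806 introns thus had the largest median distance of the 6 classes, while the largest median length was that of introns with 1 unspliced read.

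The longest member was intron 2 of Cux1, a homeobox transcription factor gene, with 77713 nt (chr5:136408028-136485740, minus strand) and 44 uninduced and 25 induced reads. Introns 3 and 4 of Adk, adenosine kinase, followed with 65926 nt (chr14:21103874-21169799, plus strand; 33 and 4 reads) and 64954 nt (chr14:21169879-21234832; 28 and 3 reads). They flank the same exon, and all 3 Adk introns of this depth were members. The shortest member was intron 15 of Dnmt1, the maintenance DNA methyltransferase, with 76 nt (chr9:20926555-20926630, minus strand; 13 and 17 reads). Intron 1 of Oaz1, the ornithine decarboxylase antizyme, had 77 nt (chr10:80828634-80828710, plus strand; 52 and 25 reads), as had intron 3 of Urod, an enzyme of haem synthesis (chr4:116993311-116993387, minus strand; 15 and 21 reads). The set thus spans about the whole range of length found at this depth, which ran from 67 to 94369 nt in the comparison set.

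By position, first introns were members in 26.1% (163 of 625), internal introns in 24.1% (604 of 2505), last introns in 16.6% (35 of 211) and the only intron of a gene in 4 of 15. The first introns among the members were the longer ones, with a median of 3867 nt against 1772 nt for the other first introns. By region, 727 of the 806 lay in the coding part of the transcript, 65 in the 5' UTR (26.0% of the 250 there), 2 in the 3' UTR (of 14) and 12 in noncoding transcripts (of 41). The median 3' splice site lay 17570 nt from the transcript's end, against 8837 nt in the comparison set.

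Distance and length went together but were not the same measure. Among introns of up to 500 nt, 9.05% were members within 10000 nt of the transcript's end and 18.7% farther away. From 501 to 2500 nt the shares were 18.8% and 29.2%, and above 2500 nt they were 29.3% and 40.4%. In each of the 3 length classes the more distant introns were free of unspliced reads more often, and at either distance the share was higher in each longer class.

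Of the members, 72.8% were present in every annotated transcript that spans them, against 64.5% of the comparison set. Annotated small nucleolar or small Cajal body RNAs lay inside 5 members of the 71 introns that hold one, a share of 7.04%. These were intron 1 of Atp5c1 (51 uninduced and 18 induced reads), intron 2 of Rpl7a (27 and 15), intron 8 of Nap1l4 (15 and 21), intron 4 of Mgat5 (31 and 3) and intron 1 of Cs (19 and 15). None of the 8 introns with an annotated microRNA was a member. Introns with such a small RNA that were in the comparison set had a median length of 386 nt. The median of the 5 members was 10620 nt, but the Rpl7a intron had only 295 nt.

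Splice site scores separated the set little. The program behind the deposited scores is not given in the sources used here, and a higher score was read as closer to the consensus. The median 5' score was 8.88 for the 780 members with a score and 8.84 for the 2534 scored introns of the comparison set. The median 3' score was 9.04 against 8.56. From 0 to 11 or more unspliced reads, the median 3' score was 9.04, 8.80, 8.58, 8.66, 8.48 and 8.12 over the 6 classes given for length, while the 5' score stayed between 8.69 and 8.92. Median GC content was 43.0% against 44.1%. A 5' score under 5 was found in 7.05% of members and 6.71% of the comparison set, and a 3' score under 5 in 6.03% and 8.05%.

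**Figure D3:**
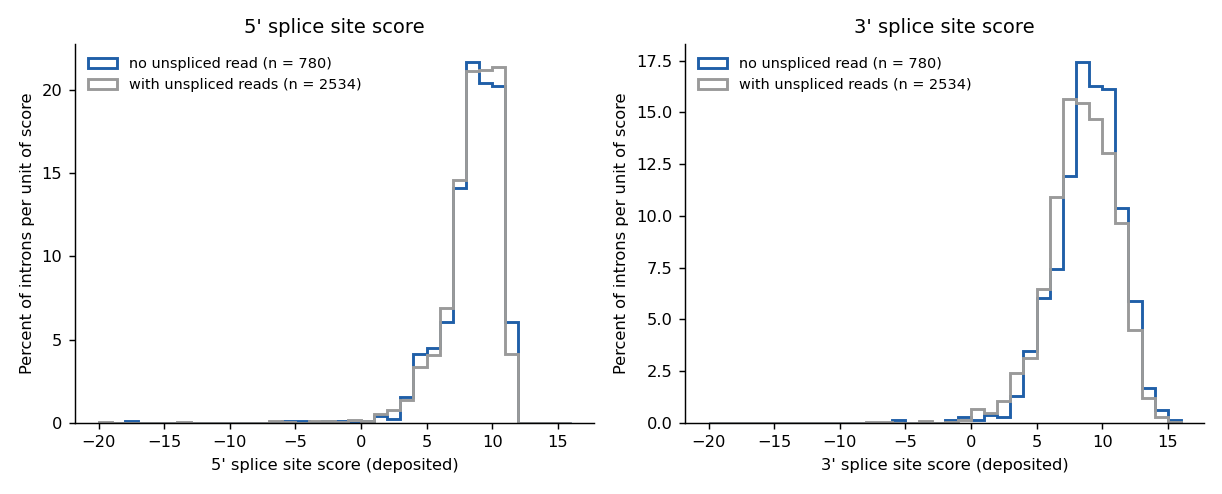
Percent of introns (y axis) in each unit of deposited splice site score (x axis), for the 5' site (left) and the 3' site (right), in 780 introns without and 2534 introns with unspliced reads. The outlines nearly coincide for the 5' site (medians 8.88 and 8.84), and the blue outline is shifted slightly to the right for the 3' site (medians 9.04 and 8.56).

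The letters at the sites gave the same picture. The last exon base was G in 79.9% of members and 80.2% of the comparison set, and the fifth intron base was G in 81.2% and 81.8%. GC in place of GT began 6 of 780 members and 17 of 2534 other introns. The motifs GTATCC or ATATCC at the intron's start, searched on the gene's strand only, were found in 3 of 780 and 13 of 2534. All 780 members ended with AG.

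Low-scoring sites did occur among the members. Capza1 intron 5, of an actin capping protein, had the lowest 5' score at -17.98, with 27 uninduced and 13 induced reads (chr3:104834805-104839781, minus strand); 1 of the 2 annotated transcripts that span it contains it. The next lowest 5' scores belonged to 2 of the GTATCC introns printed above. Ccnt2 intron 1, of a cyclin of the elongation factor P-TEFb, scored -5.13 at the 5' and 2.97 at the 3' site and had 35 and 11 reads (chr1:127774386-127775100, plus strand). Pfdn5 intron 3, of a prefoldin chaperone subunit, scored -4.71 and had 45 and 27 reads (chr15:102326850-102328521, plus strand). The GTATCC intron of Eif3i, a translation initiation factor subunit, scored -2.15 and had 33 and 8 reads. Which class of sites the deposited score was built for is not stated.

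Of the GC introns, intron 2 of Gpr107 was deepest, with 32 uninduced and 48 induced reads and a 5' score of 3.32. Intron 3 of Rictor, a subunit of the mTORC2 kinase complex, had 28 and 28 reads and scored 3.24. Intron 7 of Rrm1, the large subunit of ribonucleotide reductase, had 19 and 19 reads and scored 0.42, the lowest of the 6. As the printed sites show, 5 of the 6 continue as GCAAGT or GCAAGA and the Rrm1 site as GCACGT.

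At the 3' end, Atp6ap2 intron 7, of an accessory protein of the proton-pumping V-ATPase, had the lowest score at -5.26 and 20 uninduced and 26 induced reads (chrX:12607081-12608834, plus strand). Zfp809 intron 1, of a zinc finger protein known for silencing proviruses, scored -1.26 and had 20 and 62 reads (chr9:22225833-22235019, plus strand). Lin7c intron 2, of a membrane scaffold protein, scored -0.72 and had 34 and 41 reads (chr2:109894584-109895107, plus strand). All 3 had 5' scores above 8, of 8.88, 8.27 and 10.03.

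Members clustered in genes. Of the 419 genes, 216 had 1 member, 102 had 2, 54 had 3, 28 had 4, 11 had 5, and 8 had more. When an intron was a member, the next intron of sufficient depth in the same gene and directly after it was a member in 42.6% of pairs (228 of 535), against 18.2% after an intron of the comparison set (349 of 1920). Introns of a gene are read in part from the same molecules, so neighbouring values are not independent. Genes without a member (386) had short introns close to the transcript's end, with medians of 616 nt and 4370 nt. The 1230 other introns of the member genes had medians of 1210 nt and 17388 nt.

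Within genes the contrast was smaller. In 335 genes with both kinds, the members' median was longer in 184 and shorter in 151, with a median difference of 135 nt. The 3' score was higher for the members in 176 and lower in 151 of 327 genes with scores, and the 5' score in 173 and 154. The members lay farther from the transcript's end in 151 genes and nearer in 184. The distance that differed between the pooled sets thus did not differ in the same direction within these genes.

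Dock2, an activator of the GTPase Rac in blood cells, had most members: 10 of its 14 introns with at least 30 spliced reads. Their reads ran from 34 to 43 per intron, 258 uninduced and 118 induced in all, and their lengths from 541 to 5739 nt. Its introns 1 and 2, of 27498 and 22727 nt, were not members but had only 1 unspliced read each. The 4 deep introns with unspliced reads had 1 to 3 of them, 3.85% of their reads.

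Ncapd3, a subunit of the condensin II complex, had 8 members of 14, with 327 uninduced and 146 induced reads. Introns 2, 3 and 4 (6154, 4253 and 2940 nt) were members with 101, 92 and 79 reads. Intron 11, with 131 nt, had 36 spliced and 5 unspliced reads, a share of 12.2%, while the 213-nt intron 13 had 32 spliced reads and no unspliced read. At 32 reads, 0 unspliced reads still allows a share of up to 9.38% for intron 13.

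Pgk1, phosphoglycerate kinase of glycolysis, had 7 members of its 10 introns. Its members held 471 uninduced and 32 induced reads, and the other 3 introns had only 4 unspliced beside 196 spliced reads. Pgk1 has processed copies elsewhere in the genome, and how such reads were assigned is not stated. Eif2ak2, the RNA-dependent protein kinase PKR, had 7 members of 9 with the opposite balance of pools, 78 uninduced and 197 induced reads. Its intron 1 was not among them, with 46 spliced and 6 unspliced reads (11.5%).

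Nedd4, a ubiquitin ligase, had 7 members of 15, among them introns of 99 nt (intron 4; 48 and 28 reads) and 78 nt (intron 11; 28 and 20 reads) beside one of 8529 nt (intron 5; 43 and 27 reads). All 7 lay among introns 4 to 13. Beyond intron 13 only introns 19 and 20 had the depth to be members, and they had 24.4% and 11.4% unspliced reads. Below that depth, introns 16, 22, 23, 24 and 25 had no unspliced read, with 28, 28, 27, 23 and 21 spliced reads. The other shallow introns beyond intron 13 had 1 to 4 unspliced reads each. Ctps2, a CTP synthase, was the single gene with at least 5 introns of this depth that were all members: 5 of 5, with 31 to 33 reads each and 134 to 6370 nt. This rests on the edge of the rule, since its intron 4, between the members, had 29 spliced and 1 unspliced read. With at least 3 such introns, 14 of 494 genes had members only, among them Phc3, a Polycomb protein (4 introns, 107 uninduced and 142 induced reads), Elob (3 introns, 148 and 73) and Higd1a (3 introns, 188 and 42).

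**Figure D4:**
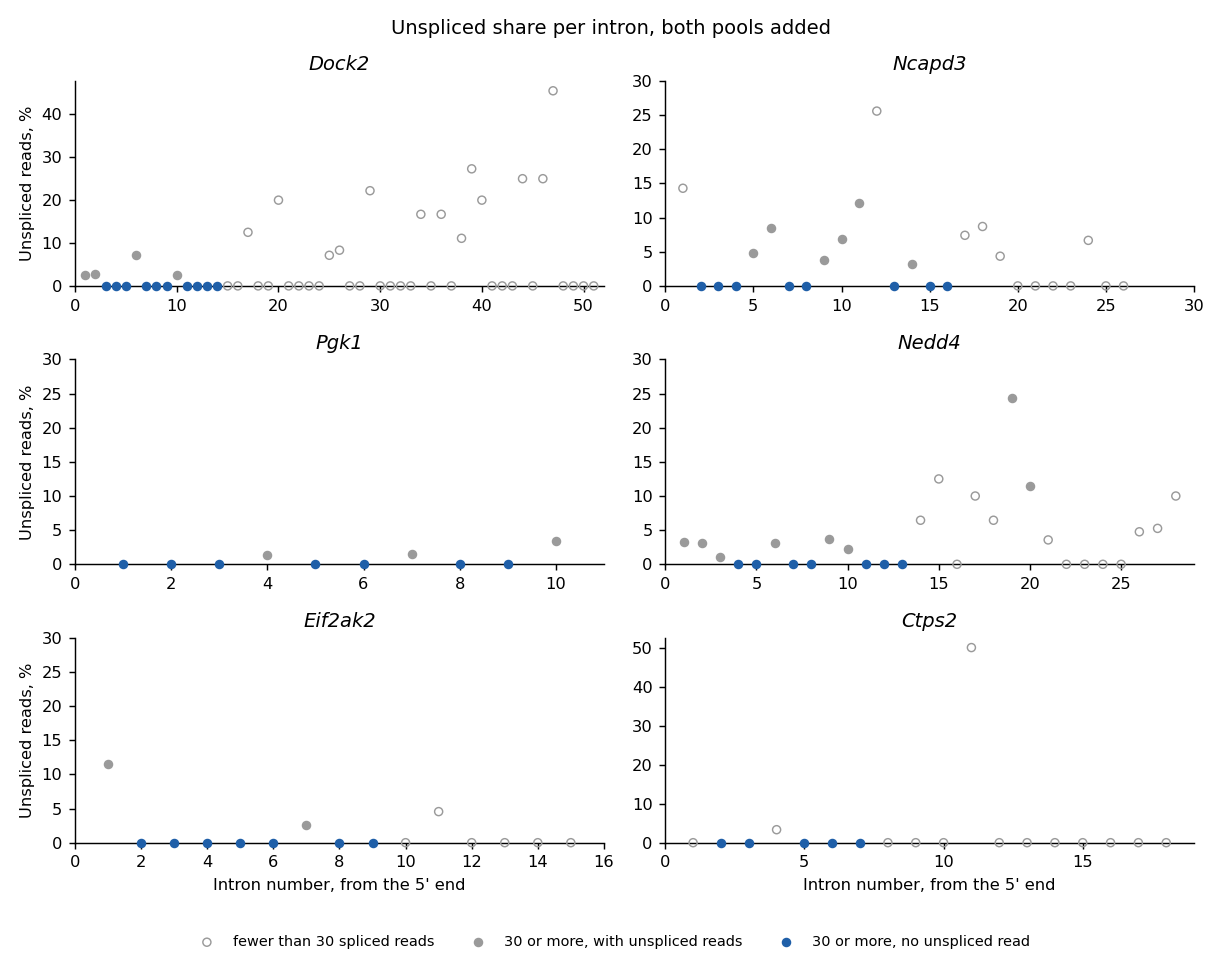
Unspliced reads as a percent of all reads (y axis; scales differ) at each intron, numbered from the 5' end (x axis), of the 5 genes with most members and of Ctps2, both pools added. Blue points at 0 are introns without unspliced reads and at least 30 spliced reads, filled grey points are other introns of that depth, and open points have fewer spliced reads; Dock2 has 10 blue points and Ctps2 has 5.

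Genes grouped by function held members in unequal shares, against 24.0% of all introns of this depth. Members were few in ribosomal protein genes: 9 of 172 introns of large subunit genes (5.23%) and 3 of 104 of small subunit genes (2.88%). These 12 lay in 9 genes, of which Rpl7l1 (1 member, intron 3, with 12 and 24 reads) is a paralog named for its likeness to Rpl7 and not a standard ribosomal protein, and beside Rps25 and Rps29 the deepest were intron 3 of Rpl36 (101 uninduced and 21 induced reads) and intron 3 of Rpl22 (97 and 12). Ribosomal protein introns of this depth were short (median 364 nt) and deeply read (median 149 spliced reads), and the part of length and depth in their low share was not tested. No heat shock intron was a member (0 of 30), and 1 of 24 introns of nucleolar protein genes was, the first of Ncl (43 and 23 reads).

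Shares near or above that of all genes were found for the proteasome (21 of 75 introns, 28.0%), DNA replication (11 of 42, 26.2%), glycolysis (15 of 60, 25.0%) and the respiratory chain (18 of 74, 24.3%). The proteasome members lay in 11 genes, led by Psmd11, a lid subunit, with 5 members of 8 introns (124 uninduced and 122 induced reads). In DNA replication, Rrm1 had 5 of 8 and Top2a, topoisomerase II alpha, 4 of 19. In glycolysis, 7 of the 15 were those of Pgk1. Initiation factors had 16 of 77, but 7 of these were introns of Eif2ak2, which is a kinase of an initiation factor and not one itself. The core spliceosome had 8 of 39, among them introns 1 and 2 of Sf3b1, which binds the branch site region (61 and 29, and 62 and 29 reads), and the SR proteins 2 of 23. Introns in none of these lists were members in 28.9% (670 of 2317).

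**Figure D5:**
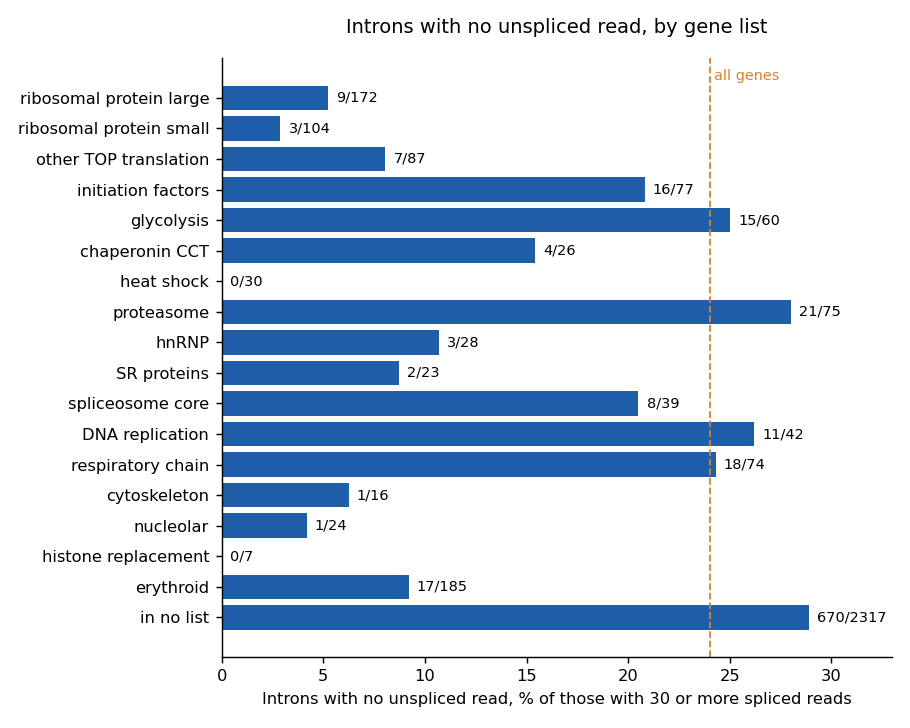
Percent of introns with at least 30 spliced reads that had no unspliced read (x axis) for each gene list (y axis), with the counts beside the bars. The dashed line is the 24.0% of all genes; ribosomal protein lists lie at 5.23% and 2.88%, the proteasome at 28.0%.

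Erythroid genes gave 17 members of 185 introns of this depth (9.19%), in 8 genes. All 17 had more reads in the induced pool, while 205 of the other 789 members did. The depth of these genes in the induced pool and their choice by at least 30 reads are the same counts, so this is a description of where the reads came from. In pools of cells, more maturing cells and more RNA per cell cannot be told apart.

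Sptb, the erythrocyte beta spectrin, had members at intron 9 (6 uninduced and 34 induced reads) and at the adjacent introns 12 (1 and 32), 13 (1 and 30) and 14 (3 and 28). Tfrc, the transferrin receptor that brings iron into the cell, had the adjacent introns 15 (6 and 55) and 16 (6 and 53). Urod had introns 2 (16 and 24), 3 (15 and 21) and 4 (15 and 19), of 117, 77 and 224 nt. Members named singly were intron 1 of Alad, another enzyme of haem synthesis (17 and 57), intron 23 of Ank1, which ties spectrin to the membrane (5 and 61), and intron 1 of Epb42, a membrane skeleton protein (0 and 36). In 8 of the 17 introns the uninduced pool had 6 reads or fewer, so for these the absence of unspliced reads was observed almost wholly in induced cells.

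A few members outside the list had a similar balance and are named after their values were seen. Xpo7, a nuclear export receptor, had 4 members with 10 uninduced and 184 induced reads in all, and Atp2b4, a calcium pump of the plasma membrane, 5 members with 36 and 204. Intron 1 of Fryl had 1 and 55 reads over 43393 nt, and intron 1 of the transporter gene Abcg2 had 4 and 43.

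Splicing intermediates, RNAs taken to have been cut at the start of the intron but whose exons are still apart, were counted separately by the authors, so an intron without unspliced reads can still have them. Their share of intermediates plus spliced reads, NIC in the deposited table, was available for 780 of the 806 introns. Spliced reads enter both NIC and the rule, so NIC is described for the set and tested only between pools. Over all members with a line it was 2.38% in the uninduced pool (411 of 17239 reads, interval 2.17 to 2.62) and 2.10% in the induced pool (181 of 8624, 1.82 to 2.42). These values rest on 678 introns with an uninduced and 399 with an induced line, of which 297 had both, so the pools are not compared over the same introns. In the comparison set it was 2.14% (2.06 to 2.23; 2278 introns) and 4.39% (4.24 to 4.56; 1763 introns). As a mean over introns, NIC was 2.68% and 2.03% in the members and 3.15% and 3.74% in the comparison set. The members' uninduced value was thus above that of the comparison set by summed reads and below it by the mean over introns, and the induced value was below it by both. Without genes of the erythroid list, the comparison set had 2.08% and 3.34%, and the members 2.38% and 1.97%.

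Most members had no intermediate at all. NIC was above 0 in 34.2% of members before and 25.8% after induction, against 41.7% and 42.3% in the comparison set, whose median depth in this table was higher (25.0 and 22.0 reads, against 19.5 and 15.0). Over both pools, 296 of 780 members had at least 1 intermediate.

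The highest NIC among members with at least 30 such reads was at intron 3 of Hdlbp, the RNA-binding protein vigilin (chr1:93438384-93440679, minus strand). It had 9 intermediates of 28 reads in the uninduced pool and 1 of 11 in the induced pool, 25.6% over both (interval 14.6 to 41.1). Ddb1 intron 10, of an adaptor of the CUL4 ubiquitin ligase, had 5 of 20 and 3 of 17, or 21.6% (11.4 to 37.2). Pitrm1 intron 9, of a mitochondrial peptidase, had 7 of 32 and 6 of 30, nearly equal in both pools, and 13 of 62 over both (interval 12.7% to 32.6%). Its 3' site, printed above, scored 1.75 and the Hdlbp 3' site 9.63.

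Adcy7 intron 3, of an adenylyl cyclase, had 9 of 43 uninduced reads as intermediates, or 20.9% (11.4 to 35.2), with no induced line. Mga intron 2, of a MAX-binding transcription factor, had 2 of 26 and 7 of 21, or 19.1% over both (10.4 to 32.5). In these 5 introns, which had no unspliced read, intermediates thus made up 19.1% to 25.6% of the reads counted for NIC. Among the deepest members, by contrast, Rps25 intron 1 had 0 of 196, Ergic2 intron 1 had 0 of 188 and Map1lc3b intron 1 had 0 of 177.

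The change of NIC between pools was tested per intron by Fisher's exact test (two-sided) and Benjamini-Hochberg adjustment over the 2039 introns with a line in both, which compares the 2 pools of libraries and not the conditions. None of the 297 members tested was called, against 2 of 2039 introns in all, a background of 0.0981%. At an unadjusted p under 0.05 there was 1 member, against 34 of 2039 introns in all (1.67%). With a chi-square test with continuity correction there were likewise 0 members at an adjusted and 1 at an unadjusted p under 0.05. That member was intron 7 of Ncapd3 (chr9:27045590-27045904), with 0 of 32 uninduced and 3 of 14 induced reads as intermediates (Fisher's exact test, unadjusted p = 0.0240, adjusted p = 1.00). NIC was higher in the induced pool for 55 members, higher in the uninduced pool for 69, equal above 0 for the remaining pair, and 0 in both for 171. For those 171 no difference could be called, so the absence of calls among the members is not read as a result about them. The NIC of Mga intron 2 was 7.69% uninduced and 33.3% induced, and that of Hdlbp intron 3 was 32.1% and 9.09%, neither a difference that passed the test (Fisher's exact test, adjusted p = 1.00 for each).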

How the data were processed

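Both tables used hold at most 1 line per intron and condition, made by the authors from long reads of pooled libraries; which runs were added is not stated. Spliced reads were deposited as raw counts, per the file headers and the values, and unspliced reads and intermediates as whole numbers whose counting rule is not stated. The deposited NIC is a fraction, equal in every line to intermediates over intermediates plus spliced reads, and was printed as percent. GC content is a deposited percent, taken as that of the intron, and each splice site has a deposited score. Per the submitters' processing notes, cutadapt, minimap2, SAMtools, bedtools and Bowtie and the builds mm10 and dm3 were used, with no version, role or order.

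Deposited intron starts plus 2 and ends minus 1 were matched to GENCODE mouse release 21 (GRCm38): 68768 of 68794 introns were placed, and 8158 of 8397 transcripts had the same version. Intron number, region and distances follow the tabulated transcript of each gene, and 3356 of 3357 introns with at least 30 spliced reads could be placed. The members, gene lists and tests were chosen with earlier results of these data known. Features were described by counts and medians beside the 2551 other introns. NIC was compared between the 2 pools by Fisher's exact test (two-sided) per intron over all 2039 introns with both lines, with Benjamini-Hochberg adjustment at 0.05 (Python 3.11.15, pandas 2.3.3, numpy 2.4.6, SciPy 1.17.1). The procedure was tested on simulated data with added changes larger than the NIC of any member, so smaller changes were not tried. Depth is 30 to 210 spliced reads per member, and the limit that a count of 0 allows is 3 counts of the total.

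Introns were named by rule: the 10 deepest members, the 3 longest and 3 shortest, the 3 with the lowest score at either site, the 5 with the highest NIC (at least 30 reads), the 3 with most induced reads, those of the 5 genes with most members and of erythroid genes. Alternatives changed the read minimum (20, 50 or 10 in each pool), the unspliced reads allowed, the introns and genes included, the denominator and averaging of NIC, and the test. Reads shared between near-identical gene copies could not be separated. The transgene and PRO-seq samples were not analysed here. Some introns that the naming rule selects are not reported here.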

Additional observations from a re-analysis of the deposited data

How the results depend on the processing

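The 806 introns (24.0%) became 1913 with a minimum of 20 spliced reads (30.8% of 6207 introns) and 243 with a minimum of 50 (16.9% of 1439). They became 1362 when at most 1 unspliced read was allowed (40.6% of 3357 introns). They numbered 603 with at least 10 reads in each pool and 587 among introns present in every transcript that spans them. The members' median length ranged from 1871 to 2088 nt over the 5 alternatives run for it, and that of the other introns from 778 to 1095 nt. With a minimum of 50 reads the other introns' median distance to the transcript's end was 5814 nt. NIC of the members was 1.85% uninduced and 1.64% induced with the spliced reads of the first table as denominator, and 2.68% uninduced as a mean over introns. By that mean the comparison set had 3.15% uninduced, so the members were lower, whereas by summed reads they were higher (2.38% against 2.14%). The chi-square test called 1 of 2039 introns, no member. With a minimum of 20 reads, 670 genes had both kinds of intron, and members were longer in 53.9% of them, against 54.9%. The remaining values, 12 that answer a comparison and 48 others, moved by less than the limits set. Those limits were wide: the shares of 30.8% and 16.9% counted as unmoved from 24.0%, so that share depends on the read minimum.

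No paired analysis was possible because the tables hold 1 pooled value per condition, with no value per replicate. For the same reason no replicate was left out. Depth limits all results: at 30 reads, 0 unspliced reads allows a share of up to 10.0%, and 69.9% of the members had 30 to 49 reads.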
